A study of Mus musculus with 7 samples.

Results

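The genes described here build and load MHC class I molecules. They are 10 of the 18193 genes measured on the array, and they were chosen by name: B2m, H2-K1, H2-D1, Tap1, Tap2, Tapbp, Psmb8, Psmb9, Psmb10 and Nlrc5. All probe sets annotated to a single one of these genes were taken, which gave 27 of the 45037 probe sets, and 3 further probe sets annotated to a member together with other genes were left out. RNA was measured in whole hearts of 7 male mdx mice at 7 months of age. All lacked dystrophin through the mdx mutation, a model of Duchenne muscular dystrophy. In 4 of the mice (mdx HRTΔIKKβ) the labels give Myh6-cre and deletion of IKKβ, a kinase that activates the transcription factor NF-κB. The other 3 (mdx IKKβf/f) were littermates with the floxed gene and no Cre listed. The Myh6 promoter drives Cre in cardiomyocytes, while a whole heart also holds endothelial cells, fibroblasts and leukocytes that keep IKKβ. In such bulk RNA, fewer cells of a type and less RNA per cell cannot be told apart. Values are log2 units after RMA, a normalization that gives each probe set a value per heart, and differences are those of mdx HRTΔIKKβ minus mdx IKKβf/f hearts, each with the limma fit's standard error (SE).

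MHC class I molecules show peptides from inside the cell to CD8 T cells. The proteasome cuts proteins into these peptides, and the immunoproteasome is a form in which Psmb8, Psmb9 and Psmb10 take the places of the constitutive catalytic subunits Psmb5, Psmb6 and Psmb7. Tap1 and Tap2 form the transporter that carries peptides into the endoplasmic reticulum, where tapasin (Tapbp) helps to load them onto a heavy chain (H2-K1 or H2-D1) paired with β2-microglobulin (B2m). Interferon-γ is known to induce the pathway, Nlrc5 is the transactivator of class I genes, and NF-κB binds an enhancer of class I heavy chain and B2m promoters. Of the members, 7 lie on chromosome 17, in the order Tapbp, H2-K1, Psmb9, Tap1, Psmb8, Tap2 and H2-D1. B2m lies on chromosome 2, and Psmb10 and Nlrc5 lie on chromosome 8.

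Promoter windows from RefSeq (GRCm38.p6, 250 bases before to 50 after the annotated start) were found for 8 of the 10 members, and those of the class I molecule's own chains are shown because they hold motifs of the kinds that NF-κB, interferon regulatory factors and the complex of Nlrc5 are known to use. They are H2-K1 (chr17:34000298-34000597, minus strand), H2-D1 (chr17:35262844-35263143, plus strand) and B2m (chr2:122147437-122147736, plus strand). Capitals mark, in the order of each window, a κB motif and an interferon-type motif (reversed in order in B2m), then an X2 motif and a Y motif.

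H2-K1: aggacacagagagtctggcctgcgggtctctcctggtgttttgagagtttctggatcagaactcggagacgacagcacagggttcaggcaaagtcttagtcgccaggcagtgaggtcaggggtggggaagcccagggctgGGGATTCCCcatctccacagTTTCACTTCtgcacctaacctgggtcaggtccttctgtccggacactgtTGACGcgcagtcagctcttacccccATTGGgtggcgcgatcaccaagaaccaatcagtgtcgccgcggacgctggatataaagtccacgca

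H2-D1: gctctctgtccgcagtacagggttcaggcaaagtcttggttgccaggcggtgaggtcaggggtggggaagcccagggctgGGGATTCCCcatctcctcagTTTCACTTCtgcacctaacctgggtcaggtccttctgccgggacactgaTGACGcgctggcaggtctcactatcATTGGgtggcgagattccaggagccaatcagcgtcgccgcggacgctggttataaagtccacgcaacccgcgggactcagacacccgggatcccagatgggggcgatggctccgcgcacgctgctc

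B2m: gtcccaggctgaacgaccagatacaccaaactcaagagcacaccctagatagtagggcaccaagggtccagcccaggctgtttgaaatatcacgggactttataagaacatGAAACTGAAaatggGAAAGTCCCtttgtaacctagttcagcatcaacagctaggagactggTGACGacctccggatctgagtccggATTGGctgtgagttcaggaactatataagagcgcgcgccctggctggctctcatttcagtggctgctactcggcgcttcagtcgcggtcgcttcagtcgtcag

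Motifs were searched on both strands and chosen with the sequences in view. The κB motif GGGATTCCC lay at -110 to -102 from the start of H2-K1 and at -170 to -162 of H2-D1, and GGGACTTTC lay on the reverse strand at -125 to -117 of B2m. Each of these κB motifs was found in 0.353% of 32851 mouse promoter windows of the same length. The interferon-type motif GAAGNGAAA, on the reverse strand in H2-K1 and H2-D1, was in 2.44% of windows, and GAAANNGAA, seen in B2m, was in 8.56%. All 3 windows held TGACG (X2) with 20 bases between it and ATTGG (Y). That arrangement, with 10 to 30 bases allowed between the motifs, was in 0.743% of windows and in no other of the 8 members' windows. The H2-K1 and H2-D1 windows share an identical run of 47 bases. Psmb9 and Tap1 are transcribed away from each other, and their windows overlap by 275 bases. A match is a description of the sequence, not a measured binding site.

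The tissue and the arrays were checked first. All 8 cardiomyocyte markers (such as Myh6 and Tnnt2) read between 13.2 and 15.1 in every heart. Array medians lay between 6.73 and 6.751, and the lowest correlation between any pair of arrays was 0.987. Some hearts stood apart for other tissues. The score used averages the log2 values of a marker list after centring each gene over the 7 hearts. The skeletal muscle score was 4.59 in mdx IKKβf/f heart 1 and 0.95 in mdx IKKβf/f heart 3. It was 0.20 in mdx HRTΔIKKβ heart 2 and at most -1.29 elsewhere. All 8 skeletal muscle markers had a lower mean in mdx HRTΔIKKβ hearts (median difference -2.26), with overlapping groups. The airway and lung score was 3.19 in mdx HRTΔIKKβ heart 2 and 1.30 in mdx HRTΔIKKβ heart 4, and at most -0.29 elsewhere. The neutrophil score was 3.00 in mdx HRTΔIKKβ heart 2 and 2.87 in mdx IKKβf/f heart 1. The atrial score was -1.99 in mdx IKKβf/f heart 2. Ikbkb, the targeted gene, read 8.44, 8.86, 8.75 and 8.82 in the mdx HRTΔIKKβ hearts and 8.82, 9.03 and 8.86 in the mdx IKKβf/f hearts, a difference of -0.18 ± 0.11 (SE, limma adjusted p = 0.801). Whether its probes lie in the deleted part is not given, so this value does not check the labels.

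None of the 10 members differed between the groups at an adjusted p of 0.05, where 0% of all genes did. The mean was higher in mdx HRTΔIKKβ hearts for 5 members and lower for 5, and the median of their differences was -0.005, beside -0.006 over all genes. At an unadjusted p of 0.05, limma called 0 of 10 members, against 6.2% of all genes (3.25% higher and 2.95% lower). The groups overlapped for every member, whereas they did not overlap for 5.67% of genes. Over the 27 probe sets the counts were also 0 for both measures, with a background of 6.07% and 5.44% of probe sets. The adjusted p-values of the members ran from 0.820 to 0.987, and the smallest over all probe sets was 0.336.

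These counts come with limits on the size of change. For 8 of the 10 members the 95% interval of the difference lay within 1.5-fold in both directions, and the exceptions were H2-D1 and Nlrc5. This count uses the brightest probe set of each gene. The H2-K1 probe set 1451931_x_at had an interval of 0.631 to 1.18 as a fold, which passes that limit. Without mdx IKKβf/f heart 3, the median of the members moved to -0.12, and 2 members passed the unadjusted threshold by limma. They were H2-D1 (-0.47, unadjusted p = 0.0338) and Psmb9 (-0.36, unadjusted p = 0.0344), with an adjusted p of 0.815 for each. Over the fits that leave out 1 heart each, 2019 to 3362 of the 45037 probe sets passed that threshold, beside 2735 with all hearts. Without mdx IKKβf/f heart 1, the median of the members was 0.07.

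**Figure D1:**
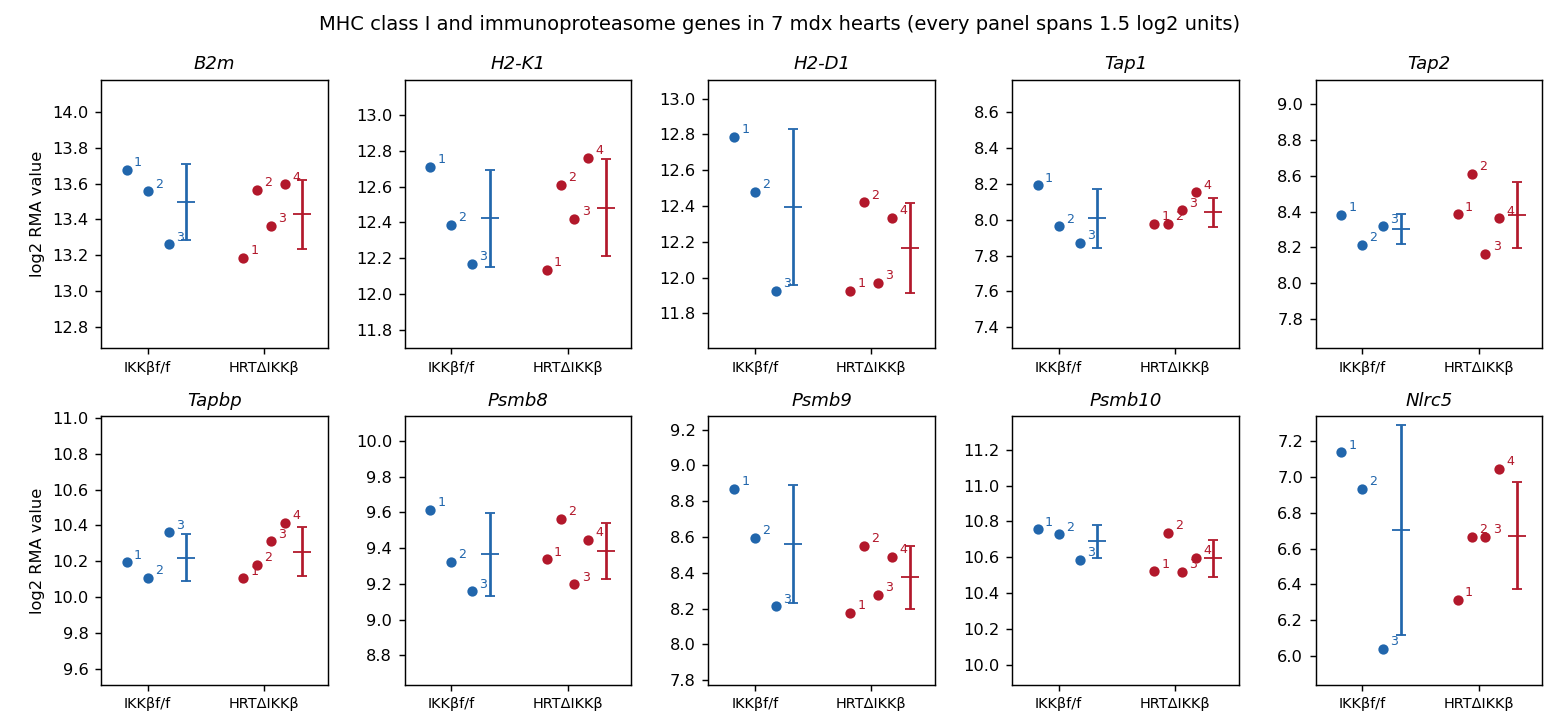
Log2 RMA value (vertical axis) of each member in 3 hearts of the mdx IKKβf/f group (blue) and 4 of the mdx HRTΔIKKβ group (red), 1 point per heart labelled with its replicate number, with the group mean ± SD as a bar beside the points. The groups overlap in all 10 panels, and mdx IKKβf/f heart 1 is the highest of the 7 hearts in 7 of them.

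The chains of the class I molecule itself did not differ between the groups beyond the spread of the hearts. B2m, the light chain shared by all classical class I molecules, read 13.19, 13.57, 13.36 and 13.60 in mdx HRTΔIKKβ hearts 1 to 4 and 13.68, 13.56 and 13.26 in mdx IKKβf/f hearts 1 to 3. Its means were 13.43 ± 0.19 (SD, n = 4) and 13.50 ± 0.21 (SD, n = 3). The highest and the second lowest value both belonged to mdx IKKβf/f hearts, and the difference was -0.07 ± 0.13 (SE, limma adjusted p = 0.920, 95% interval -0.38 to 0.24). The other B2m probe set also gave -0.07.

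H2-K1, the K heavy chain, read 12.13, 12.61, 12.42 and 12.76 in the mdx HRTΔIKKβ hearts and 12.71, 12.39 and 12.17 in the mdx IKKβf/f hearts. Hearts 4 and 1 of the respective groups were nearly level at the top, and hearts 1 and 3 at the bottom. The difference was 0.06 ± 0.17 (SE, limma adjusted p = 0.954, 95% interval -0.35 to 0.46), and the remaining 3 probe sets gave -0.21, 0.07 and -0.01.

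H2-D1, the D heavy chain, read 11.93, 12.42, 11.97 and 12.34 in the mdx HRTΔIKKβ hearts and 12.79, 12.48 and 11.93 in the mdx IKKβf/f hearts. The top pair were controls, but control heart 3 was level with the lowest mdx HRTΔIKKβ heart. The difference was -0.23 ± 0.21 (SE, limma adjusted p = 0.838), a fold of 0.851 with a 95% interval of 0.603 to 1.20. The H2-D1 probe sets 1425614_x_at, 1427651_x_at, 1450170_x_at and 1451934_at were dim, with means below the median of all probe sets. Of its 8 further probe sets, 7 had a lower mean in mdx HRTΔIKKβ hearts, these dim ones included. The widest of these differences was that of 1426324_at, which read 8.58, 9.18, 8.77 and 9.09 in the mdx HRTΔIKKβ hearts and 9.96, 9.64 and 8.79 in the mdx IKKβf/f hearts (-0.56 ± 0.28, limma unadjusted p = 0.0803, adjusted p = 0.796). Heavy chain genes are close in sequence, and 11 of the 13 H2-K1 and H2-D1 probe sets carry the suffix _x_at, which marks probes that can also match other transcripts, so the split of signal between H2-K1 and H2-D1 is uncertain.

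**Figure D2:**
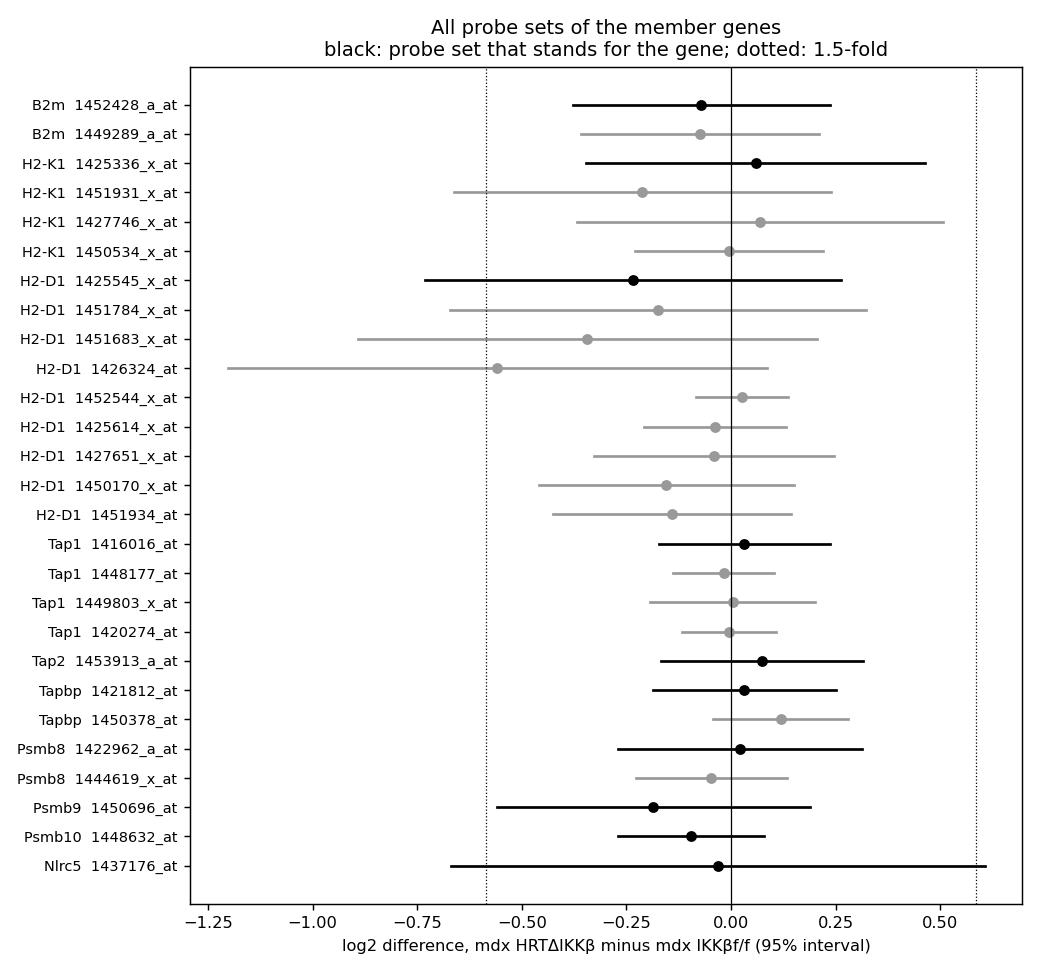
Difference between the groups (horizontal axis, log2 units, mdx HRTΔIKKβ minus mdx IKKβf/f) with its 95% interval from limma for each of the 27 probe sets, in black for the probe set with the highest mean of its gene and in grey for the others. Every interval includes 0, 9 differences are above 0 and 18 are below it, and the dotted lines mark 1.5-fold.

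The peptide transporter and tapasin had nearly level group means. Tap1 read 7.98, 7.98, 8.05 and 8.15 in the mdx HRTΔIKKβ hearts and 8.19, 7.96 and 7.87 in the mdx IKKβf/f hearts, a difference of 0.03 ± 0.09 (SE, limma adjusted p = 0.95). Both the highest and the lowest value were those of controls. Its 3 further probe sets, all below the median of all probe sets, gave -0.02, 0.00 and 0.00.

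Tap2, the partner of Tap1 in the transporter, read 8.38, 8.61, 8.16 and 8.36 in the mdx HRTΔIKKβ hearts and 8.38, 8.22 and 8.32 in the mdx IKKβf/f hearts (0.07 ± 0.10, limma adjusted p = 0.888). Here the mdx HRTΔIKKβ hearts held both ends of the range. Tapbp read 10.11, 10.18, 10.31 and 10.41 in the mdx HRTΔIKKβ hearts and 10.19, 10.11 and 10.36 in the mdx IKKβf/f hearts (0.03 ± 0.09, limma adjusted p = 0.954). The range was nearly the same in both groups. Another Tapbp probe set, 1450378_at, had a difference of 0.12 ± 0.07 (limma unadjusted p = 0.127, adjusted p = 0.796) with overlapping groups.

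Of the immunoproteasome subunits, Psmb9 and Psmb10 had a lower mean in mdx HRTΔIKKβ hearts and Psmb8 was nearly level, none past the adjusted threshold. Psmb8, which replaces Psmb5, read 9.34, 9.56, 9.20 and 9.45 in the mdx HRTΔIKKβ hearts and 9.61, 9.32 and 9.16 in the mdx IKKβf/f hearts, a difference of 0.02 ± 0.13 (SE, limma adjusted p = 0.979). The controls lay at both ends. Its other probe set gave -0.05.

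Psmb9, which replaces Psmb6, read 8.18, 8.55, 8.28 and 8.49 in the mdx HRTΔIKKβ hearts and 8.87, 8.60 and 8.21 in the mdx IKKβf/f hearts (-0.19 ± 0.16, limma adjusted p = 0.831, 95% interval -0.56 to 0.19). As for H2-D1, control hearts 1 and 2 were the highest pair, while heart 3 was next to the lowest. Psmb10, which replaces Psmb7, read 10.52, 10.74, 10.52 and 10.60 in the mdx HRTΔIKKβ hearts and 10.76, 10.73 and 10.58 in the mdx IKKβf/f hearts (-0.10 ± 0.08, limma adjusted p = 0.820). The groups made up 24.5% of its variation over the hearts, the highest share among the members, whose median share was 3.17% beside 12.9% over all genes.

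Among the probe sets that stand for the members, that of Nlrc5, the class I transactivator, varied the most from heart to heart. Its mean lay below the median of all probe sets. It read 6.31, 6.67, 6.67 and 7.04 in the mdx HRTΔIKKβ hearts and 7.14, 6.94 and 6.04 in the mdx IKKβf/f hearts. Its means were 6.67 ± 0.30 (SD, n = 4) and 6.70 ± 0.59 (SD, n = 3), and the controls held both the highest and the lowest value. The difference was -0.03 ± 0.27 (SE, limma adjusted p = 0.987), with a 95% interval of 0.629 to 1.52 as a fold, the widest among the probe sets that stand for the members.

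The hearts differed within both groups, and most members shared the order. Heart 1 of the mdx IKKβf/f group was the highest of all for 7 of the 10 members, and the lowest heart was mdx HRTΔIKKβ heart 1 for 4 members and mdx IKKβf/f heart 3 for another 4. The mean of the members' centred values was -0.19, 0.09, -0.10 and 0.13 in mdx HRTΔIKKβ hearts 1 to 4 and 0.24, 0.04 and -0.20 in mdx IKKβf/f hearts 1 to 3. The heart highest in this mean, mdx IKKβf/f heart 1, also had the highest skeletal muscle score (4.59). The heart lowest in it, mdx IKKβf/f heart 3, had the next highest skeletal muscle score (0.95). The part of skeletal muscle in the members' values was not tested. Within the mdx HRTΔIKKβ group, heart 3 was lower than heart 4 for 10 of 10 members, and within the mdx IKKβf/f group heart 1 was higher than heart 2 for 10 of 10. The spread within groups was wide for the array: it exceeded the median gene's (SD 0.109) for 9 of the 10 members. Nlrc5 had a larger SD within groups than 97.2% of genes, H2-D1 than 95.1%, H2-K1 than 92.0% and Psmb9 than 90.7%, and Psmb10 had a larger one than 43.0%.

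As a description over the 7 hearts, which share arrays and normalization, the correlation of each member with the mean of the other members was 0.97 for B2m, 0.92 for Psmb9, 0.92 for H2-D1, 0.90 for H2-K1, 0.84 for Nlrc5, 0.83 for Psmb8, 0.74 for Psmb10 and 0.73 for Tap1. Tap2 (0.25) and Tapbp (-0.12) did not follow. Both lie on chromosome 17 with members that did, while B2m and Nlrc5 lie on other chromosomes. The non-members most like the members' mean over the 7 hearts were Irgm2 (r = 0.91), an interferon-inducible GTPase, followed by Rbm43 (0.90), Fnip2 (0.90), Blmh (0.89), Fbxo30 (0.89) and Kdsr (0.88). Irgm2 read 8.86, 8.93, 8.76 and 9.16 in the mdx HRTΔIKKβ hearts and 9.33, 9.01 and 8.67 in the mdx IKKβf/f hearts. Its highest and lowest hearts were mdx IKKβf/f hearts 1 and 3, as for the members' mean. These non-members were picked for this likeness among many genes over few hearts, so the shared order is no separate result.

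**Figure D3:**
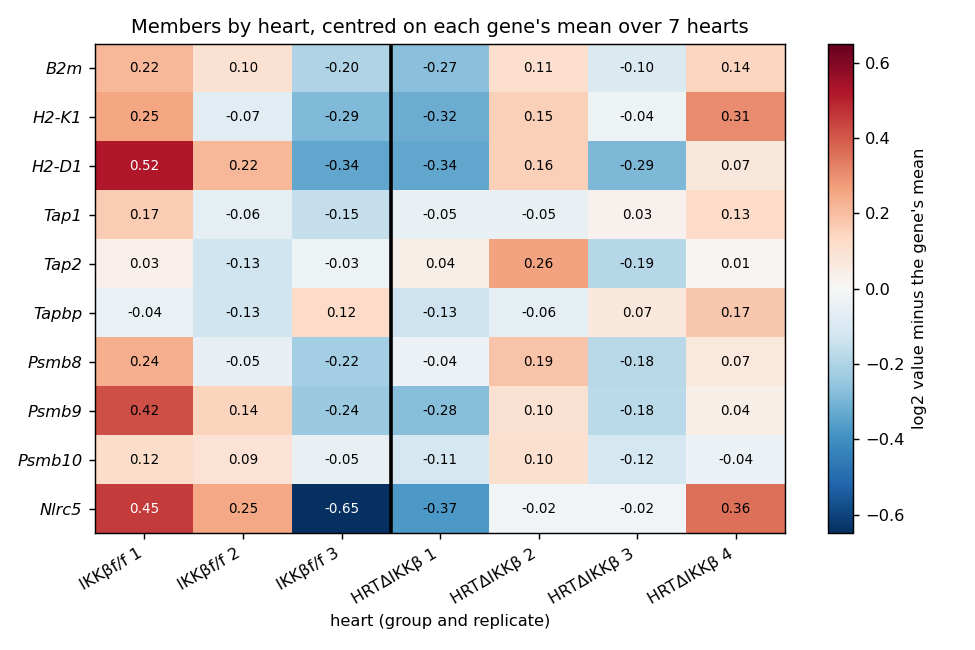
Log2 value of each member (rows) in each heart (columns) minus the member's mean over the 7 hearts, with mdx IKKβf/f hearts left of the black line and mdx HRTΔIKKβ hearts right of it. Columns of mostly red (mdx IKKβf/f heart 1, mdx HRTΔIKKβ heart 4) and mostly blue (mdx IKKβf/f heart 3, mdx HRTΔIKKβ heart 1) stand on both sides of the line, and the rows of Tap2 and Tapbp follow the columns least.

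The constitutive catalytic subunits all had a slightly higher mean in mdx HRTΔIKKβ hearts, with overlapping groups and none past the adjusted threshold. Psmb5, the constitutive chymotrypsin-like subunit, read 12.39, 12.49, 12.34 and 12.45 in the mdx HRTΔIKKβ hearts and 12.37, 12.38 and 12.37 in the mdx IKKβf/f hearts (0.05 ± 0.05, limma adjusted p = 0.863). Psmb6 differed by 0.03 ± 0.05 and Psmb7 by 0.10 ± 0.06 (limma adjusted p = 0.899 and 0.796). The groups made up 52.0% of the variation of Psmb7 over the hearts, beside a median of 12.9% over all genes. The SD within groups was larger than that of 9.71% of genes for Psmb5, 7.45% for Psmb6 and 12.5% for Psmb7, beside 83.4% for Psmb8, 90.7% for Psmb9 and 43.0% for Psmb10. Over the 7 hearts, the range of Psmb10 (0.24) was close to that of Psmb7 (0.22). Of the 11 other subunits of the 20S core, 10 had a lower mean after IKKβ deletion and 1 a higher mean, with a median of -0.03 (0.00 without mdx IKKβf/f heart 2). Psma7, a subunit of the outer ring, was the only one at an unadjusted p of 0.05 (-0.15 ± 0.06, limma unadjusted p = 0.0498, adjusted p = 0.796), and its groups did not overlap. Among 7 activator and assembly genes, 6 had a lower mean and 1 a higher mean, 0 passed at an unadjusted p of 0.05, and Psme1, a subunit of the interferon-inducible activator PA28, differed by -0.08 ± 0.07.

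**Figure D4:**
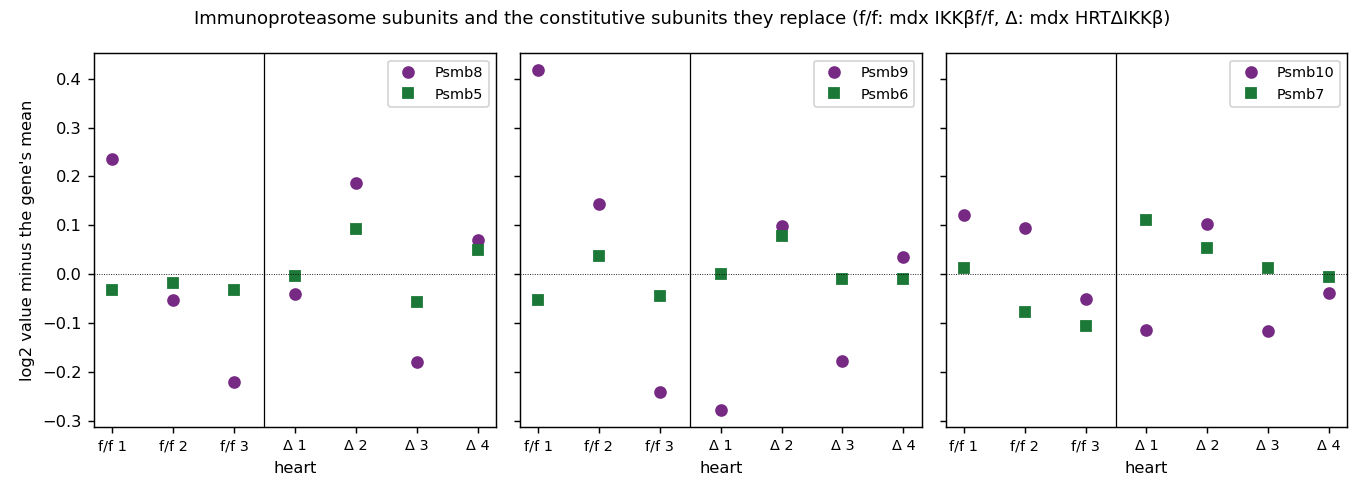
Log2 value minus the gene's mean over the 7 hearts (vertical axis) for each immunoproteasome subunit (purple circles) and the constitutive subunit it replaces (green squares), in mdx IKKβf/f hearts (left of the line in each panel) and mdx HRTΔIKKβ hearts (right). The range over hearts is 0.46 for Psmb8 and 0.69 for Psmb9, against 0.15 for Psmb5 and 0.13 for Psmb6, while Psmb10 (0.24) and Psmb7 (0.22) have nearly the same range.

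Among the chaperones that work with tapasin, Pdia3 and Calr had higher means in mdx HRTΔIKKβ hearts, neither past the adjusted threshold. Pdia3, the disulfide isomerase ERp57 of the peptide-loading complex, read 11.93, 11.75, 11.62 and 11.56 in the mdx HRTΔIKKβ hearts and 11.22, 10.54 and 11.36 in the mdx IKKβf/f hearts. Every mdx HRTΔIKKβ heart was above every control, and the difference was 0.67 ± 0.19 (SE, limma unadjusted p = 0.00881, adjusted p = 0.796). Calr, the chaperone calreticulin, differed by 0.43 ± 0.14 (limma unadjusted p = 0.017, adjusted p = 0.796) with overlapping groups. They were the 2 of 7 loading and trimming genes at an unadjusted p of 0.05, beside 6.2% of all genes. The others had values such as 0.08 ± 0.08 for Canx and -0.05 ± 0.06 for Tpp2. The median of the list was 0.03, and it lay between -0.03 without mdx IKKβf/f heart 1 and 0.08 without mdx IKKβf/f heart 3. Both proteins serve glycoprotein folding in general as well as class I loading.

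Other class I and class I-like genes and the regulators of the pathway gave no call at an adjusted p of 0.05. Of 8 further heavy chain and class I-like genes, 5 had a higher and 3 a lower mean, and 0 passed at an unadjusted p of 0.05. The widest gap relative to its error in that list was that of Hfe, the iron regulator (0.21 ± 0.10, limma unadjusted p = 0.06), whose groups did not overlap. Of 12 transcription factor genes of the pathway, 6 had a higher and 6 a lower mean. Rfx5, which binds the X box of class I promoters together with its partners, read 7.65, 7.71, 7.83 and 7.83 in the mdx HRTΔIKKβ hearts and 7.96, 7.86 and 7.98 in the mdx IKKβf/f hearts. The groups did not overlap, and the difference was -0.18 ± 0.07 (SE, limma unadjusted p = 0.0264, adjusted p = 0.796). Irf1, an activator of class I genes that interferon-γ induces, differed by -0.14 ± 0.06 (limma unadjusted p = 0.0687, adjusted p = 0.796).

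Interferon genes were examined because interferon is the main known inducer of the members. Of 12 receptor and signalling genes, 2 were lower at an unadjusted p of 0.05 and 0 higher, beside 2.95% lower and 3.25% higher of all genes. They were the kinase Jak1 (-0.32 ± 0.13, limma unadjusted p = 0.0371, adjusted p = 0.796) and Ifng, interferon-γ itself (-0.17 ± 0.07, limma unadjusted p = 0.0385, adjusted p = 0.796), which was dim, between 4.32 and 4.72 in every heart. Of 19 interferon-induced genes, 13 had a lower and 6 a higher mean, with a median of -0.12. This median lay between -0.24 without mdx IKKβf/f heart 3 and 0.00 without mdx IKKβf/f heart 1.

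Ifit2, an interferon-induced inhibitor of translation, read 8.06, 7.92, 8.30 and 8.24 in the mdx HRTΔIKKβ hearts and 8.99, 8.53 and 8.45 in the mdx IKKβf/f hearts (-0.53 ± 0.15, limma unadjusted p = 0.00807, adjusted p = 0.796). Cxcl9, a chemokine that interferon-γ induces and that attracts T cells, read 7.34, 7.26, 8.10 and 8.10 in the mdx HRTΔIKKβ hearts and 8.96, 8.28 and 8.18 in the mdx IKKβf/f hearts (-0.77 ± 0.28, limma unadjusted p = 0.0265, adjusted p = 0.796). All controls were above all mdx HRTΔIKKβ hearts for these 2 genes, which were the ones of the list at an unadjusted p of 0.05. Irgm1 (-0.24 ± 0.11) and the dim Mx1 (0.23 ± 0.12) had overlapping groups. The score of the interferon-induced genes was -0.18, -0.18, -0.03 and 0.13 in mdx HRTΔIKKβ hearts 1 to 4 and 0.28, 0.05 and -0.08 in mdx IKKβf/f hearts 1 to 3. Control heart 1 was the highest in this score as in that of the members, whereas mdx HRTΔIKKβ heart 2 was among the lowest here and above the mean there.

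The MHC class II genes, which present extracellular peptides and are largely restricted to antigen-presenting cells, were a comparison outside the class I pathway. The mdx HRTΔIKKβ mean was the higher for all 5, with a median of 0.17, and 0 passed at an unadjusted p of 0.05. The sign of this median turned on a single heart, since it was -0.06 without mdx HRTΔIKKβ heart 4 and 0.30 without mdx HRTΔIKKβ heart 1. Cd74, the invariant chain, differed by 0.32 ± 0.22 (limma adjusted p = 0.814). Their score was -0.50, 0.12, 0.05 and 0.63 in the mdx HRTΔIKKβ hearts and 0.10, -0.44 and 0.04 in the mdx IKKβf/f hearts.

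Markers of leukocytes, which carry much class I, are given beside the members because a whole heart holds them. The mdx HRTΔIKKβ mean was the higher for all 10 macrophage and monocyte markers. Of these, 4 were at an unadjusted p of 0.05 and 2 had groups that did not overlap, beside 6.2% and 5.67% of all genes. Their score ran from -0.18 to 0.34 in mdx HRTΔIKKβ hearts and from -0.38 to -0.09 in the mdx IKKβf/f hearts. For T and NK cells 9 of 11 markers had a higher mean and 0 passed, with a score of 0.70 in mdx HRTΔIKKβ heart 1 and between -0.19 and -0.03 in the other hearts. That high score came mostly from T cell genes such as Cd8b1 (7.95 there, between 4.82 and 5.16 in the other hearts). Gzmb, Prf1, Nkg7 and Ncr1 read within the range of the other hearts there. All 6 B and plasma cell markers had a higher mean, 3 of them at an unadjusted p of 0.05 (Ighm, Jchain and Mzb1) and 2 of these with groups that did not overlap, with scores from -0.26 to 2.19 in mdx HRTΔIKKβ hearts and from -1.45 to -0.25 in mdx IKKβf/f hearts. The hearts with the highest T and NK cell score and the highest macrophage score were the same heart, mdx HRTΔIKKβ heart 1, in which 9 of the 10 members lay below their own mean. The neutrophil list was highest in mdx HRTΔIKKβ heart 2 (3.00) and mdx IKKβf/f heart 1 (2.87), where the members' score was 0.09 and 0.24. It was lowest in mdx HRTΔIKKβ heart 4 (-1.49), where the members' score was 0.13. Its high scores came from S100a8, S100a9 and Ngp, while Cxcr2 lay between 6.00 and 6.52 in every heart. Its 4 markers held 0 at an unadjusted p of 0.05. The dendritic cell score lay between -0.10 and 0.06 in all hearts, with 0 of 6 markers at an unadjusted p of 0.05. Of 6 endothelial markers, 3 had a higher and 3 a lower mean. Only Pecam1 was at an unadjusted p of 0.05 (0.30 ± 0.07, limma unadjusted p = 0.00221, adjusted p = 0.789), and its groups did not overlap. Of 6 fibroblast markers, 5 had a higher and 1 a lower mean, with 0 at an unadjusted p of 0.05. The part of other cell types in the members' values was not tested.

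**Figure D5:**
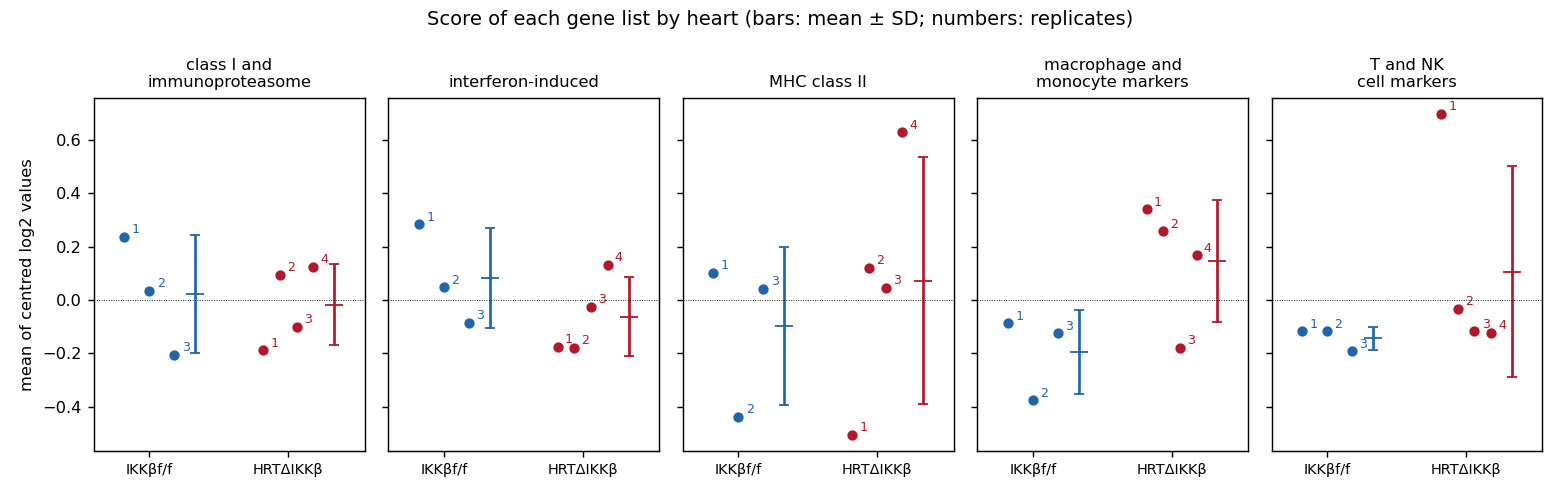
Score of each gene list per heart (vertical axis, mean of the genes' centred log2 values), for the mdx IKKβf/f group (blue) and the mdx HRTΔIKKβ group (red), labelled with the replicate number and with the group mean ± SD as a bar. The members' scores overlap between groups, and mdx HRTΔIKKβ heart 1, highest for macrophage and monocyte markers (0.34) and for T and NK cell markers (0.70), is at -0.19 for the members, while mdx IKKβf/f heart 1 is highest for the members (0.24) and for the interferon-induced genes (0.28).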

How the data were processed

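Total RNA from 7 whole hearts was hybridized to Affymetrix Mouse Genome arrays, with 1 heart per array. The authors made the deposited log2 values by RMA (background correction, quantile normalization, then 1 value per probe set). Per the methods and the submitters' processing notes, Partek was used and Affymetrix Expression Console was run independently. Versions, and which program made the table, are not given in the sources used here. Differences of dim probe sets are compressed by RMA, and a global shift in RNA is removed by the quantile step. The number of arrays limits the precision. The study calls its samples biological replicates.

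All 45037 probe sets were fitted with limma 3.58.1 (lmFit, eBayes) under R 4.3.3. Tests were two-sided, and p-values were adjusted by Benjamini-Hochberg over all probe sets. Probe sets were named through the platform annotation (34945 with 1 gene symbol, 932 with several, 9160 with none). The 10 members were found by Entrez ID in a RefSeq table (GRCm38.p6), which also gave their chromosomes. Each of 18193 genes was represented by its brightest probe set on average. Named genes are all members, Psmb5, Psmb6 and Psmb7, Ikbkb, up to 4 genes with the smallest unadjusted p per list, and the 6 non-members, above the median of genes in mean value, most correlated with the members' mean. Members, lists and this rule were chosen with earlier results of these data known. The fit was tested on simulated data. Alternatives were centring of arrays on their medians, quantile normalization again, a filter on dim probe sets (under the 30th percentile) or on _x_at and _s_at ones, a trended or a robust variance, array weights, a replicate block, the methods' t-test, the mean of a gene's probe sets and leaving out each heart.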

Additional observations from a re-analysis of the deposited data

Results flagged for a closer look

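In 30 probe sets (27 of the members and 3 of the constitutive catalytic subunits) the 4 mdx HRTΔIKKβ hearts were searched for a highest or lowest value whose gap to its nearest neighbour was above Dixon's 95% critical share of the group's range (a criterion that chance meets in about 1 in 20 groups). All 3 that met it were values of mdx HRTΔIKKβ heart 2. Its value for the H2-D1 probe set 1427651_x_at was 6.12, with the next heart at 6.04. The dim Tap1 probe set 1420274_at read 3.50 there, with the next heart at 3.57. Psmb6 (1448822_at) read 12.08 there, with the lowest of the group at 11.99. None of the 3 is the probe set that stands for a member gene.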

How the results depend on the processing

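No member passed an adjusted p of 0.05 under any alternative or without any heart. The number at an unadjusted p of 0.05 was 0 in all except without mdx IKKβf/f heart 3 (0 to 2). At that threshold, leaving out each heart in turn called 2019 to 3362 of the 45037 probe sets. Probe sets past the adjusted threshold numbered 0, and 1 without mdx HRTΔIKKβ heart 1 (0 to 1). Leaving out each heart in turn moved the median of the members between -0.12 and 0.07, that of the class I transcription factors between -0.0189 and 0.0801 (without mdx HRTΔIKKβ heart 3), and single members between -0.19 and 0.0179 for B2m, -0.0679 and 0.20 for H2-K1, -0.0367 and 0.12 for Tap1, -0.00218 and 0.15 for Tap2, -0.0252 and 0.10 for Tapbp, -0.0828 and 0.15 for Psmb8, and -0.36 and 0.19 for Nlrc5, so that the sign of these depends on the hearts included. H2-D1 (-0.47 to -0.04), Psmb9 (-0.36 to -0.03) and Psmb10 (-0.15 to -0.06) stayed below 0. The sign also turned for Psmb8 with a second quantile normalization (-0.0027), for Nlrc5 with array weights (0.13), and for H2-K1 (-0.0222) and Psmb8 (-0.0131) with the mean of a gene's probe sets. The cause was not tested.

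Replicates with the same number did not deviate together (correlations -0.08, -0.38 and -0.04). The deviations were taken from the means of few hearts, and those of the 3 controls cancel out. These correlations therefore cannot settle whether the numbers pair the hearts. With the replicate block on replicates 1 to 3, differences were -0.0338 for H2-K1, -0.00604 for Tap1 and -0.0222 for Tapbp, and 0 members were called. The same values came from replicates 1 to 3 with no block, an alternative chosen after seeing the data. This was fixed in advance, since a block cannot change the difference of means when each number occurs once per group. Without _x_at and _s_at probe sets no value is left for H2-K1, and H2-D1 is then 1426324_at.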

Other observations

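A contrast between the heavy chains was noticed after their values were seen and carries no test. The H2-D1 probe set 1426324_at, which is not marked _x_at, minus the H2-K1 probe set 1425336_x_at, centred over the 7 hearts, was -0.24, -0.12, -0.34 and -0.36 in mdx HRTΔIKKβ hearts 1 to 4 and 0.56, 0.57 and -0.07 in mdx IKKβf/f hearts 1 to 3. The groups did not overlap there, with mdx IKKβf/f heart 3 close to the nearest mdx HRTΔIKKβ heart, but this depended on the probe sets chosen. Against the H2-K1 probe sets 1451931_x_at and 1450534_x_at the groups overlapped, and the differences of 1426324_at were -0.35 and -0.55. Over all 16 pairs of the 4 H2-K1 probe sets with the 4 brightest of H2-D1, the groups did not overlap in 3, and the lowest and highest differences were -0.63 and 0.04.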
